A study of Mus musculus with 11 samples.

Results

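Kif1a, Kif1b, Kif3a, Kif5a, Kif5b and Kif5c, which encode motors that carry cargo along axons, were followed through arrays of whole mouse brain. All probe sets annotated to exactly 1 of these genes were taken, which gave 9 of the 12488 probe sets on the array. After a filter on dim probe sets, 6 of the 9 were tested, 1 for each gene, among 7453 in all. No probe set with several annotated genes held a member.

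The arrays came from 5 brains of mice null for Chrnb4, which encodes the beta4 subunit of the nicotinic acetylcholine receptor, and 6 brains of wild-type littermates. All mice were C57BL/6J, untreated and aged 6 to 9 weeks, and each array held RNA of 1 brain. The null group held 2 males, both 9 weeks old, and 3 females of 7 to 8 weeks. The wild-type group held 4 males of 6 to 9 weeks and 2 females of 6 to 7 weeks. Every null mouse had an animal number with the letters B4, as did 3 wild-type mice, and the other 3 wild-type mice, all 6 weeks old, had LT. What these letters stand for is not given in the sources used here. No probe set was annotated to Chrnb4, so the genotype could not be checked on these arrays.

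Kinesins are motor proteins that use ATP to walk along microtubules, mostly toward the plus end, which in axons points away from the cell body. Kif1a and Kif1b belong to the kinesin-3 family and carry synaptic vesicle precursors and, in the case of a Kif1b splice form, mitochondria. Kif3a is a motor subunit of heterotrimeric kinesin-2, which also works in cilia. Kif5a, Kif5b and Kif5c are the heavy chains of conventional kinesin-1, which moves mitochondria, vesicles and neurofilament proteins. Kif5a and Kif5c are enriched in neurons, and Kif5b is made in most tissues.

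The 2 male null arrays stood apart from the other 9 over the whole array. Their scores on the first principal component, which held 39.7% of the variance, were 47.2 and 49.2, against -16.3 to -2.03 on the others. The ratio of the 3′ to the 5′ Gapdh control probe set, a measure of how far labelled RNA reaches toward the 5′ end, was 0.859 and 0.798 in the male nulls, against 2.19 to 5.92 on the others. Their median signals were 58.4 and 56.4, against 43.65 to 49.8, although the deposited signals had the same trimmed mean of 150.1 on every array. Neuron markers were bright throughout, with summed signals of 11362 to 17001, and 6 markers of heart and liver summed to 73.8 to 165.8. The kinesins are therefore described within each sex and with and without the male null brains.

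In male brains, Kif5a was 7.47-fold higher in nulls than in wild types, Kif5c 6.43-fold, Kif1a 4.75-fold and Kif3a 2.4-fold, while Kif5b differed by 1.34-fold and did not pass the test. Kif1b was also called higher, but it passed the filter on dim probe sets only through the male nulls: its mean log2 signal was 4.47 over the other 9 arrays, below the filter at 4.69. The other 5 kinesins passed the filter over those 9 arrays too, and 4 of these 5 were called higher in male nulls. Of all probe sets tested, 17.8% were called higher and 14.8% lower within males (limma, Benjamini-Hochberg adjusted p under 0.05). In female brains none of the 6 passed, nor did any of the 7453 probe sets. An unadjusted p under 0.05 (limma) was found there for 1 of the 6, Kif5c, and for 4.13% of probe sets. Whether a difference in bulk tissue lay in the number of cells or in the RNA per cell cannot be told apart.

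**Figure D1:**
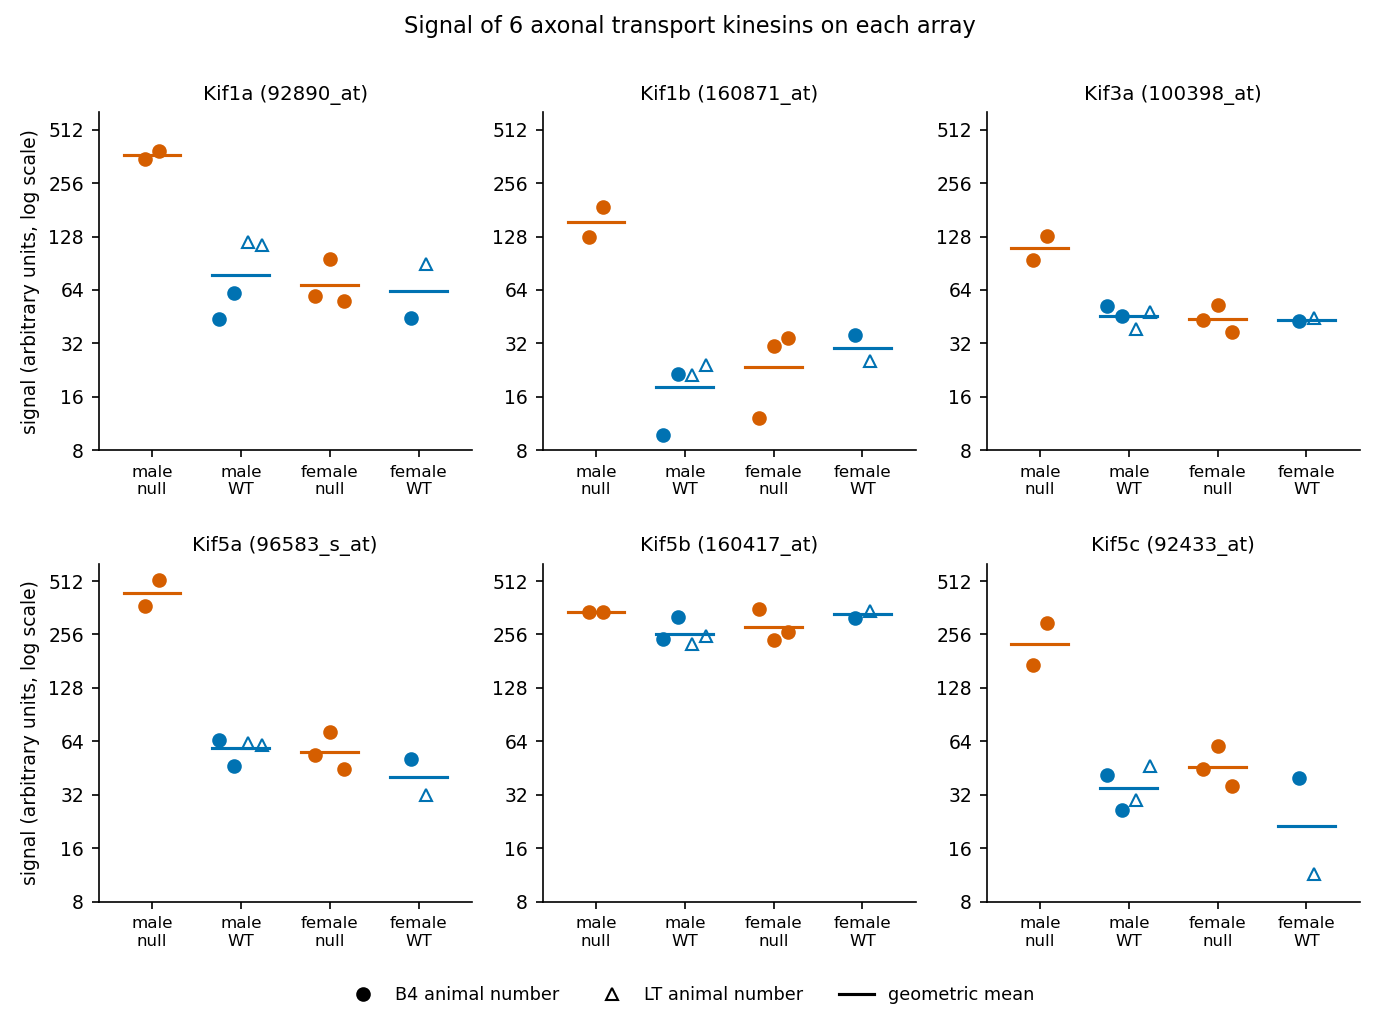
Signal of each tested kinesin probe set (log axis, arbitrary units) in male null, male wild-type, female null and female wild-type brains, 1 point for each array, circles for B4 and triangles for LT animal numbers, with each group's geometric mean as a line. The 2 male null points lie above all 9 others for Kif1a, Kif1b, Kif3a, Kif5a and Kif5c, and within their range for Kif5b.

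Among the kinesin-1 heavy chains, Kif5a (96583_s_at, chromosome 10) had signals of 368.8 and 516.4 in male null brains, against 65.2, 46.7, 62.8 and 61.0 in male wild-type brains. In female nulls it had 53.4, 72.2 and 44.9, against 50.8 and 31.8 in female wild types. Both male nulls were above every other array, and the female groups overlapped. The log2 difference within males was 2.90 ± 0.27 (SE; limma adjusted p = 1.556e-05), and within females 0.47 ± 0.28 (limma adjusted p = 0.995).

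Kif5c (92433_at, chromosome 2), the other neuron-enriched heavy chain, had 171.9 and 297.4 in male nulls, against 41.6, 26.4, 29.9 and 46.7 in male wild types. Female nulls had 44.7, 60.3 and 35.9, and female wild types 39.7 and 11.5. The male groups were apart, and in females the low array was 1 wild-type brain. Male nulls exceeded male wild types by 2.68 ± 0.45 on the log2 scale (SE; limma adjusted p = 0.000748). Within females the difference was 1.10 ± 0.47 (limma adjusted p = 0.995), and it ranged from 0.21 without the wild-type female at 11.5 to 2.0 without the one at 39.7.

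Kif5b (160417_at, chromosome 18), the widely made heavy chain, had 343.1 and 343.9 in male nulls, against 240.1, 319.7, 227.7 and 250.6 in male wild types. In females the nulls had 354.1, 237.5 and 264.6, and the wild types 318.1 and 349.1. The male nulls were above the male wild types but within the range of the females. The log2 difference within males was 0.42 ± 0.18 (SE; limma adjusted p = 0.0989), and it passed the threshold only without wild-type brain 2 (0.52, limma adjusted p = 0.0337). Within females it was -0.24 ± 0.19.

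The kinesin-1 genes were also set against one another within each array, which removes the scaling of an array. The log2 signal of Kif5a minus that of Kif5b was 2.48 higher in male nulls than in male wild types, and that of Kif5c minus Kif5b 2.27 higher. Both had an exact two-sided permutation p of 0.133, the smallest that 2 against 4 arrays allow. In females the same differences were 0.716 (exact permutation p = 0.4) and 1.35 (exact permutation p = 0.2, the smallest possible). The first was 0.311 without wild-type brain 5, 1.12 without wild-type brain 3 and 0.407 without null brain 4, and the second 0.387 without wild-type brain 5 and 2.31 without wild-type brain 3. Such a difference shows unequal change of the probe sets and not which of them changed.

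Of the kinesin-3 motors, Kif1a (92890_at, chromosome 1) had 351.5 and 388.6 in male nulls, against 44.1, 61.5, 118.5 and 114.3 in male wild types. Female nulls had 59.2, 95.5 and 55.8, and female wild types 44.5 and 89.3. The male groups were apart and the female groups overlapped. The log2 difference within males was 2.25 ± 0.40 (SE; limma adjusted p = 0.00114), against 0.11 ± 0.42 within females.

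Kif1b (160871_at, chromosome 4) had 127.5 and 187.7 in male nulls, against 9.8, 21.5, 21.2 and 24.2 in male wild types. In females it had 12.1, 31.0 and 34.5 in nulls, and 35.9 and 25.5 in wild types. Both male nulls were above every other array. Nulls differed from wild types by 3.09 ± 0.49 on the log2 scale within males (SE; limma adjusted p = 0.000509) and by -0.37 ± 0.52 within females. All 4 male wild-type signals lay below 25.8, the signal at the filter on dim probe sets, so the size of the difference rests on signals below the filter, and a probe set that entered the test through the male nulls had to differ in them.

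Kif3a (100398_at, chromosome 11), the kinesin-2 subunit, had 94.1 and 128.1 in male nulls, against 52.1, 45.7, 38.8 and 47.8 in male wild types. Female nulls had 43.1, 52.8 and 37.0, and female wild types 42.6 and 44.4. The 9 other arrays kept to a narrow band below both male nulls. The log2 difference within males was 1.26 ± 0.25 (SE; limma adjusted p = 0.00219), and 0.01 ± 0.26 within females. Without null brain 2 the male difference was 1.04 (limma adjusted p = 0.054), with the lone male null assumed to vary like the other groups.

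With Kif1b left out for the reason above, both male nulls were above all 4 male wild types for 5 of 5 kinesins, where 27.1% of all tested probe sets had this order. They were above all 9 other arrays for 4 of the 5, against 20.7% of probe sets. A log2 difference of at least 2 within males was seen for 3 of the 5, Kif1a, Kif5a and Kif5c, against 1.84% of probe sets. Wild-type brain 1 matched the male nulls in sex, age and number letters. The male null mean was 8.38-fold that brain's signal for Kif1a, 6.69-fold for Kif5a, 5.44-fold for Kif5c, 2.11-fold for Kif3a and 1.43-fold for Kif5b. For Kif1b the male nulls had 127.5 and 187.7 on the tested probe set, against 9.8 in that brain, and 26 and 19.1 on the other probe set, against 30.3.

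**Figure D2:**
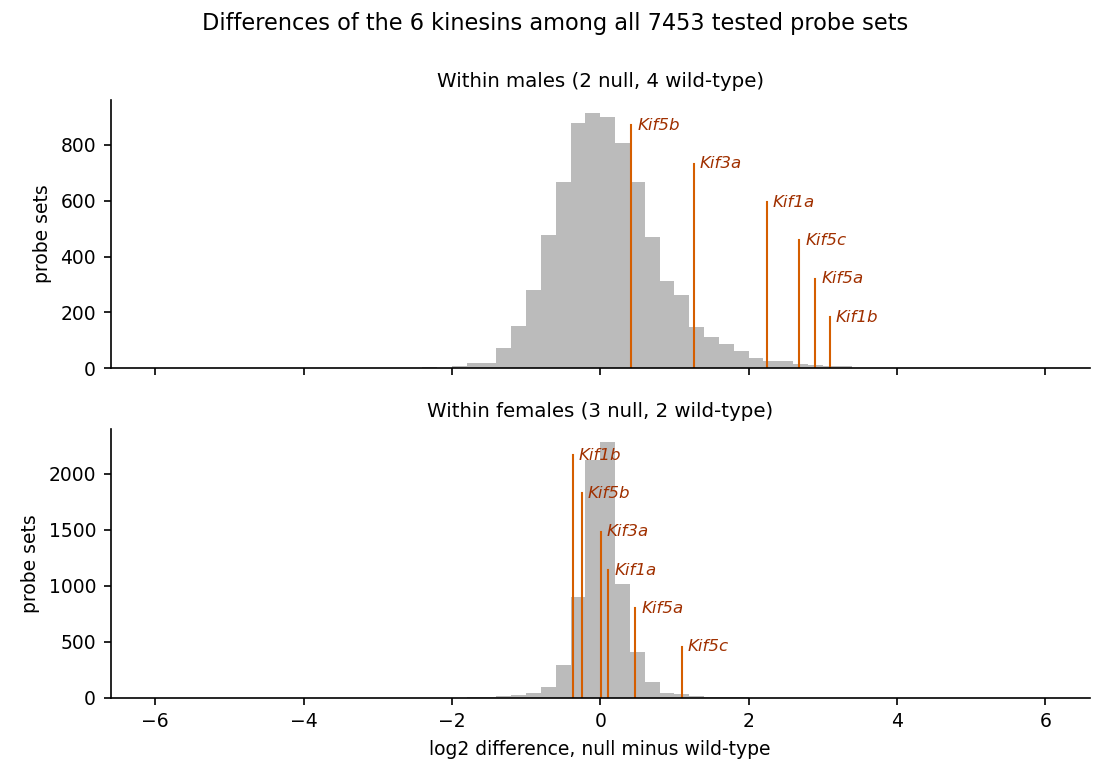
Distribution of the log2 difference between null and wild-type brains over all tested probe sets, within males and within females, with the 6 kinesins as marked lines. Within males Kif5a, Kif5c and Kif1a lie at 2.90, 2.68 and 2.25, Kif1b, kept by the filter only through the male nulls, lies at 3.09, and within females the values run from -0.37 for Kif1b to 1.10 for Kif5c.

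The remaining 3 probe sets fell below the filter and were not tested in the main fit. The second probe set of Kif1b (94379_at) had 26 and 19.1 in male nulls, against 30.3, 9.4, 10.9 and 1.7 in male wild types. The second of Kif3a (161275_at) had 22.2 and 14.8, against 5.1, 10.1, 22.8 and 12.7. That of Kif5a (98827_i_at) had 42.9 and 29.4, against 23.5, 25.4, 33.6 and 23.3. The male groups overlapped in all 3, unlike those of the brighter probe sets of the same genes. With no filter their log2 differences within males were 1.17, 0.71 and 0.44 (limma adjusted p = 0.377, 0.430 and 0.610).

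The promoters are shown because several of the genes differed together in male brains. They were looked up in RefSeq (GRCm38.p6) for 5 of the 6 genes, and not for Kif5b. No entry matched for Kif5a, and the 4 others are printed. Kif1a and Kif1b had 2 entries each, of which the one nearest the annotated 5′ end of the gene was taken. Each runs from 250 bases before to 50 bases after the gene's start. Capitals mark TGACG or its reverse complement CGTCA, the half-site of the cAMP response element.
Kif1a, chr1:93101825-93102124, minus strand: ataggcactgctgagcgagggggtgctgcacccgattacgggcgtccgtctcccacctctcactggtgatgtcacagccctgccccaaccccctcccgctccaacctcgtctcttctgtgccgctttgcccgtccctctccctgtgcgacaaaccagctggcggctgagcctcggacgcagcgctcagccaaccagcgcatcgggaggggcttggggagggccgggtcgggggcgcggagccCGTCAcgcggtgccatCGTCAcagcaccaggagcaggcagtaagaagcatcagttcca
Kif1b, chr4:149307684-149307983, minus strand: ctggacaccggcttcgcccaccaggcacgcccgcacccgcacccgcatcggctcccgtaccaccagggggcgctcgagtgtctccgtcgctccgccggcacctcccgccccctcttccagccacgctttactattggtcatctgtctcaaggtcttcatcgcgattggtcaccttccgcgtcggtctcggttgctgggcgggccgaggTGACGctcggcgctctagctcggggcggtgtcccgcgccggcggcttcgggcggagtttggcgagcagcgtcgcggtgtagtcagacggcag
Kif3a, chr11:53567119-53567418, plus strand: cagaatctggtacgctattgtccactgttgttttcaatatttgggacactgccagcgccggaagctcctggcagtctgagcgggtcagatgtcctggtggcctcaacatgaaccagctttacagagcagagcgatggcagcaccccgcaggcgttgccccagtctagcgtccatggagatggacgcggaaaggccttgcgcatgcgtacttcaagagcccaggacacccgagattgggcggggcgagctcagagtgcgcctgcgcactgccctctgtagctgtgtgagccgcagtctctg
Kif5c, chr2:49619036-49619335, plus strand: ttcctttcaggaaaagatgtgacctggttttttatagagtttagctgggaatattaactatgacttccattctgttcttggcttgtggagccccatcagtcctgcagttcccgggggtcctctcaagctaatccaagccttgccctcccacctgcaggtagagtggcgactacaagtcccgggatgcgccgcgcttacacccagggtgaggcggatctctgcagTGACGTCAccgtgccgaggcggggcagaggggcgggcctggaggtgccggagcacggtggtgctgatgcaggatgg

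The half-site was found in Kif1a, Kif1b and Kif5c and not in the Kif3a window. In Kif5c both strands of it overlap to form the full element TGACGTCA. Over 32851 promoters of the same length, 20.8% held the half-site on either strand and 1.79% the full element. The printed windows were richer in G and C, at 67% for Kif1a, 69.7% for Kif1b, 59.7% for Kif3a and 58% for Kif5c. The median over all promoters was 52.7%, and the shares were not taken over promoters of like content. A GC box, GGGCGG on either strand, was found in Kif1b, Kif3a and Kif5c and in 35.7% of all promoters. These matches describe the sequences and do not show binding.

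Over both sexes, with sex as a covariate, 0 of the 6 kinesins passed the threshold (limma), against 0.0268% of all probe sets. At an unadjusted p under 0.05, 5 of 6 were higher in nulls, and 4 of 5 with Kif1b left out, against 13.4% of probe sets. The log2 differences were 1.94 ± 0.39 for Kif5c and 1.75 ± 0.38 for Kif5a (SE; limma adjusted p = 0.0773 for both). Kif1b had 1.45 ± 0.585, Kif1a 1.24 ± 0.41, Kif3a 0.67 ± 0.25 and Kif5b 0.10 ± 0.17 (limma adjusted p of 0.122 to 0.729). Mean signals over both sexes were 211.1 ± 217.9 in nulls and 53.05 ± 12.67 in wild types for Kif5a (SD, n = 5 and 6), where the 3 null females had 44.9 to 72.2. For 0 of the 6 were all null brains above all wild-type brains, an order that 0.59% of probe sets had.

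Leaving out 1 wild-type female changed these pooled calls. Without wild-type brain 5, Kif1a, Kif5a and Kif5c passed, with log2 differences of 1.66, 1.90 and 1.79 (limma adjusted p = 0.0257, 0.0257 and 0.028). In that fit 877 of all 7453 probe sets passed, against 2 in the main fit, so the change was not particular to the kinesins. This was the highest count of any fit with 1 mouse left out. Without wild-type brain 3, Kif5a and Kif5c passed, with 2.15 and 2.44 (limma adjusted p = 0.0266 and 0.00611). The share of all probe sets that passed in that fit is not given here. These calls can therefore not be read as particular to the kinesins. Without the 2 male null brains, the pooled differences equal those within females, since no null male is left. None of the 6 passed (limma adjusted p of at least 0.999), and none of all 7453 probe sets did. An unadjusted p under 0.05 (limma) was then found for 1 of the 6, Kif5c, and for 3.54% of probe sets.

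**Figure D3:**
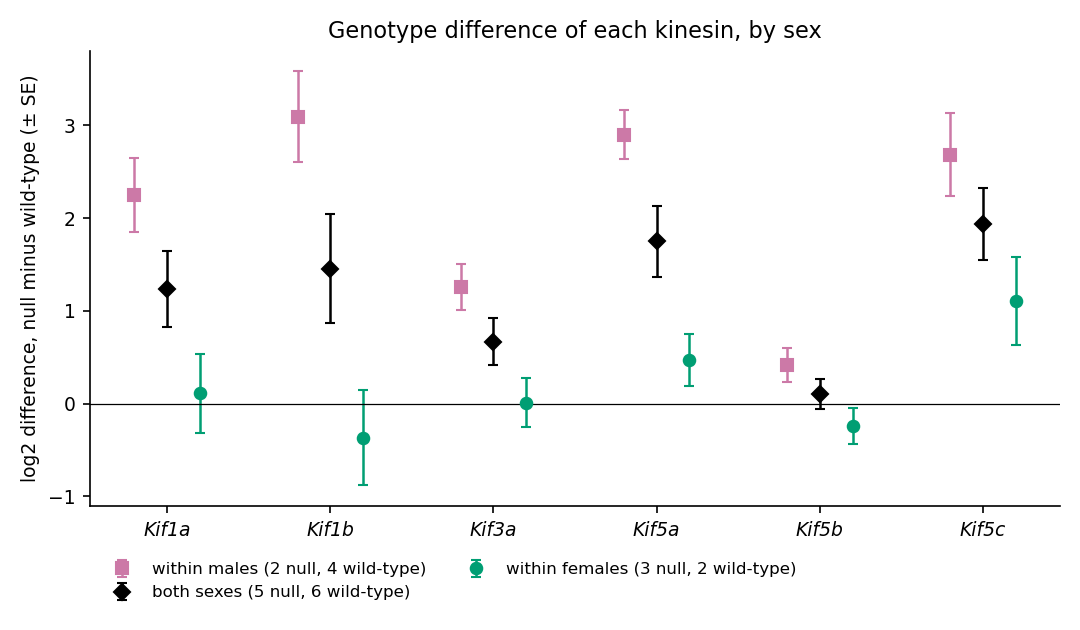
Log2 difference, null minus wild-type, of each tested kinesin within males, over both sexes and within females, with bars of 1 SE from limma. The within-male values of Kif1a, Kif1b, Kif3a, Kif5a and Kif5c lie between 1.26 and 3.09, and the within-female values lie between -0.37 and 1.10.

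The genotype difference in females was smaller than that in males for 4 of the 6 kinesins, and for 3 of 5 with Kif1b left out, by the test of the difference itself, where 8.68% of probe sets were called in this direction. For Kif5a the female difference minus the male one was -2.43 ± 0.39 on the log2 scale (SE; limma adjusted p = 0.00223), and for Kif1b -3.46 ± 0.71 (limma adjusted p = 0.00736). Kif1a had -2.14 ± 0.58 (limma adjusted p = 0.0261) and Kif3a -1.25 ± 0.36 (limma adjusted p = 0.0340). Kif5c, at -1.58 ± 0.65, and Kif5b, at -0.66 ± 0.27, did not pass (limma adjusted p = 0.119 and 0.109).

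With 1 mouse left out at a time, the call for Kif5a held in 11 of 11 fits and that for Kif1b in 10, ending without null brain 2 (-3.18, limma adjusted p = 0.0539). The call for Kif1a held in 6 and ended without wild-type brain 5 or null brain 1, 2, 3 or 5. That for Kif3a held in 5 and ended without wild-type brain 3 or 5 or the same 4 null brains. Kif5c passed without wild-type brain 5 (-2.47, limma adjusted p = 0.0257) and among B4 animals alone (-2.56, limma adjusted p = 0.0233), and Kif5b without wild-type brain 2 (-0.77, limma adjusted p = 0.0444).

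Between the sexes, with genotype as a covariate, none of the 6 kinesins and none of all 7453 probe sets passed (limma). An unadjusted p under 0.05 (limma) was found for 4 of the 6, Kif1a, Kif3a, Kif5a and Kif5c, and for 12.4% of probe sets. The log2 differences of females minus males were -1.69 ± 0.38 for Kif5a, -1.47 ± 0.39 for Kif5c, -1.32 ± 0.41 for Kif1a, -0.90 ± 0.585 for Kif1b, -0.67 ± 0.25 for Kif3a and 0.06 ± 0.17 for Kif5b (SE). Without the male nulls those of Kif5a and Kif1a were -0.54 and -0.30, and that of Kif1b was 0.74.

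The Gapdh control ratio moved with the kinesins, as the male null arrays were lowest in it and highest in 5 of the kinesins. Female nulls had ratios of 2.75, 2.19 and 3.58, against 3.91 and 3.81 in female wild types. With the log2 ratio of 5′ to 3′ Gapdh as a covariate, none of the 6 and none of all probe sets passed within males (limma). An unadjusted p under 0.05 (limma) was found for 0 of the 6 and for 7.47% of probe sets. Kif1b then differed by 3.11 ± 1.94, Kif5a by 2.17 ± 1.04, Kif1a by 1.72 ± 1.59, Kif5c by 0.89 ± 1.70, Kif5b by 0.09 ± 0.72 and Kif3a by -0.14 ± 0.89 (SE; limma adjusted p of 0.664 to 0.984). The standard errors were several times those of the fit without the ratio. Male null genotype and this ratio cannot be told apart in these arrays.

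**Figure D4:**
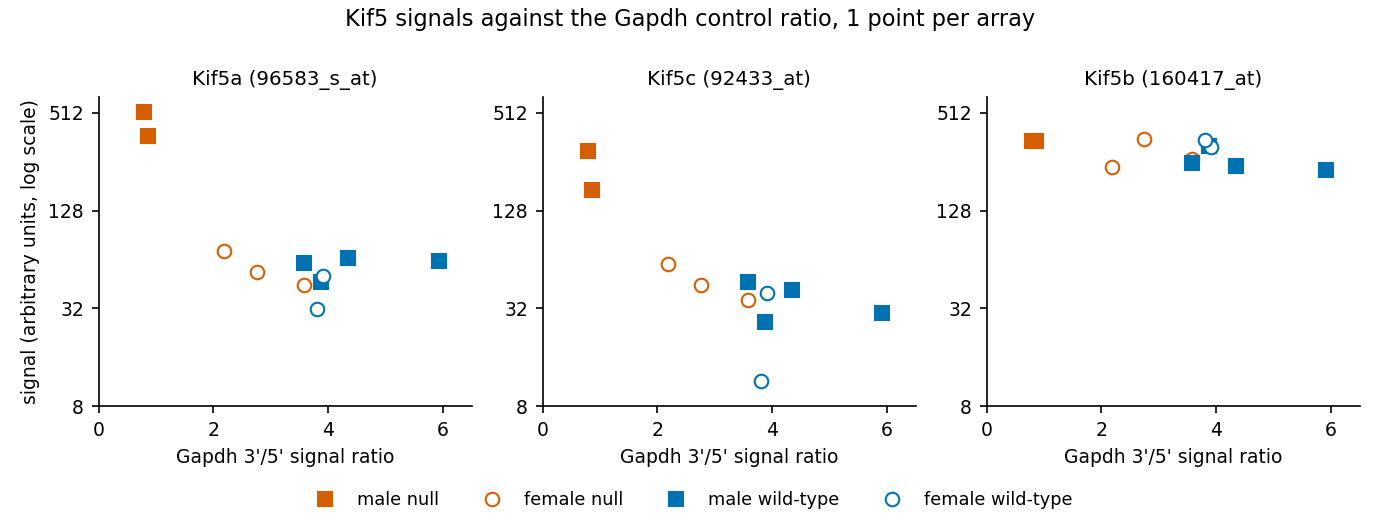
Signal of Kif5a, Kif5c and Kif5b (log axes, arbitrary units) against the Gapdh 3′ to 5′ ratio (linear axis), 1 point for each of the 11 arrays, coloured by genotype and marked by sex. The 2 male null arrays lie at ratios of 0.859 and 0.798, apart from the others at 2.19 to 5.92, and are high for Kif5a and Kif5c but not apart for Kif5b.

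Most neuron markers also moved with the kinesins. The 10 neuron markers summed to 16524 to 17001 in male nulls, against 11362 to 14601 in male wild types. In females they summed to 13853 to 14868 in nulls, against 14060 to 14348 in wild types. Within males 7 of the 10 were called higher and none lower, against 17.8% and 14.8% of all tested probe sets. Their median log2 difference was 0.97, against 0.05 over all tested probe sets. Snap25 and Thy1 went the other way, neither past the threshold. Snap25 averaged 5023 in male nulls and 6254 in male wild types, and Thy1 1794 and 1999. Over both sexes, second probe sets of Tubb3 and Stmn2 had -0.62 and 0, against 0.13 and 0.55 on the counted ones. Within females none of the 10 was called, with a median of -0.07. The 11 microglia markers summed to 2224.6 to 2599.7 in male nulls, against 1825.7 to 2010.2 in male wild types. Of the 8 tested, 4 were called higher and 2 lower within males (17.8% and 14.8% of all probe sets), with a median of 0.83. Oligodendrocyte markers had 2 higher and 1 lower of 8 tested, with a median of 0.51. Calls used the brightest tested probe set of each marker, and other probe sets could differ. The 1 lower was Mobp (-0.63). Over both sexes it had -0.505 on that probe set, but 0.83, 0.99 and 1.45 on its other tested ones. Astrocyte markers had 1 higher and 1 lower of 9 (median 0.12), and endothelium markers 1 higher and 2 lower of 10 (median 0.28). The sums of the choroid plexus and blood markers were lower in the male nulls than on any other array. The 4 of choroid plexus summed to 684.9 to 930.9 in male nulls, against 999.4 to 1773.9 on the others. The 4 of blood summed to 2440.1 to 2512.6, against 2654.4 to 6879.3. Not every member followed its sum. Folr1 of choroid plexus averaged 72.85 in male nulls and 35.2 in male wild types, and Alas2 of blood 50 and 35.2, neither past the threshold. Of the 3 tested in each list, 2 of choroid plexus and 0 of blood were called lower within males (14.8% of all probe sets). In both lists 0 were called higher (17.8% of all probe sets). The 6 heart and liver markers summed to 152.8 to 165.8 in male nulls, against 73.8 to 130.4 on the others, and 1 of them passed the filter. No marker of the neuron, microglia, choroid plexus or blood lists was at the floor on all arrays, and the part of these cell types in the kinesin differences was not tested.

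The other transport genes were described by lists, each gene through its brightest tested probe set. Other probe sets of a gene could differ from it. None of the members so taken passed over both sexes or within females. Their counts within males stand against 17.8% of all probe sets called higher and 14.8% called lower. Their medians within females, which equal those over both sexes without the male nulls, were 0.21 for the other kinesin motors, -0.03 for light chains and adaptors, -0.04 for dynein and dynactin, -0.05 for the microtubule track and -0.04 for axonal cargo, against 0.02 over all probe sets. Of 8 other kinesin motors tested, 1 was higher and 1 lower in male nulls, no more than the 17.8% and 14.8% of all probe sets, with a median log2 difference of 0.10. Kif3b, the partner of Kif3a in kinesin-2, averaged 97.8 in male nulls and 31.7 in male wild types, a log2 difference of 1.72 (limma adjusted p = 0.00608). Kif22, a motor of mitotic chromosomes, averaged 145.1 in male nulls and 229.4 in male wild types (-0.64, limma adjusted p = 0.0318). Kif1c, Kif2a, Kif3c, Kif16b, Kifc2 and Kifc3 did not pass.

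Of 13 light chains and adaptors, 4 were higher and 1 lower in male nulls (17.8% and 14.8% of all probe sets), with a median of 0.31. Trak2, which links kinesin-1 to mitochondria, averaged 173.2 in male nulls and 61.38 in male wild types (1.49, limma adjusted p = 0.000207). Mapk8ip3, a scaffold that binds kinesin-1, averaged 652 in male nulls and 258.6 in male wild types (1.36, limma adjusted p = 0.000215). Mapk8ip1 and Hap1 also passed, and Ppfia4 was lower (-0.61, limma adjusted p = 0.0106). The kinesin light chains Klc1 and Klc4 had log2 differences of 0.25 and 0.21 and did not pass.

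Of 14 dynein and dynactin genes, whose motor walks toward the cell body, 3 were higher and 2 lower in male nulls, again about the 17.8% and 14.8% of all probe sets, with a median of 0.12. Dctn1, the large dynactin subunit, averaged 1012 in male nulls and 471.3 in male wild types (1.12, limma adjusted p = 0.000946). The light chain Dynll1 averaged 2980 in male nulls and 4554 in male wild types (-0.62, limma adjusted p = 0.00134). Dctn2 was also lower on its brightest probe set, whose difference over both sexes was -0.24, against 0.77 on its other. Of 26 genes of the microtubule track, 11 were higher and 4 lower (17.8% and 14.8% of all probe sets), with a median of 0.36. Map2, a dendritic microtubule-associated protein, averaged 247.6 in male nulls and 26.7 in male wild types (3.26, limma adjusted p = 0.000105). Mapt, the axonal protein tau, averaged 1183 in male nulls and 2373 in male wild types (-1.01, limma adjusted p = 0.000301). Over both sexes Mapt had -0.47 on this probe set, and -0.52 and 0.25 on its other tested ones.

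Of 23 genes of axonal cargo, 9 were higher and 7 lower in male nulls (17.8% and 14.8% of all probe sets), with a median of 0.24. Vamp1, a synaptic vesicle SNARE protein, averaged 543.5 in male nulls and 22.1 in male wild types (5.10, limma adjusted p = 0.000771). Like Kif1b, Vamp1 passed the filter on dim probe sets only through the male nulls, so it had to differ in them. Its male wild-type average lay below 25.8, the signal at the filter, and it is among the 9 genes counted as higher. Syt1, the calcium sensor of vesicle release, averaged 1429 in male nulls and 218.8 in male wild types (2.74, limma adjusted p = 1.54e-05). Ina, a neurofilament-associated intermediate filament, was lower in male nulls (-1.16, limma adjusted p = 0.000204).

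**Figure D5:**
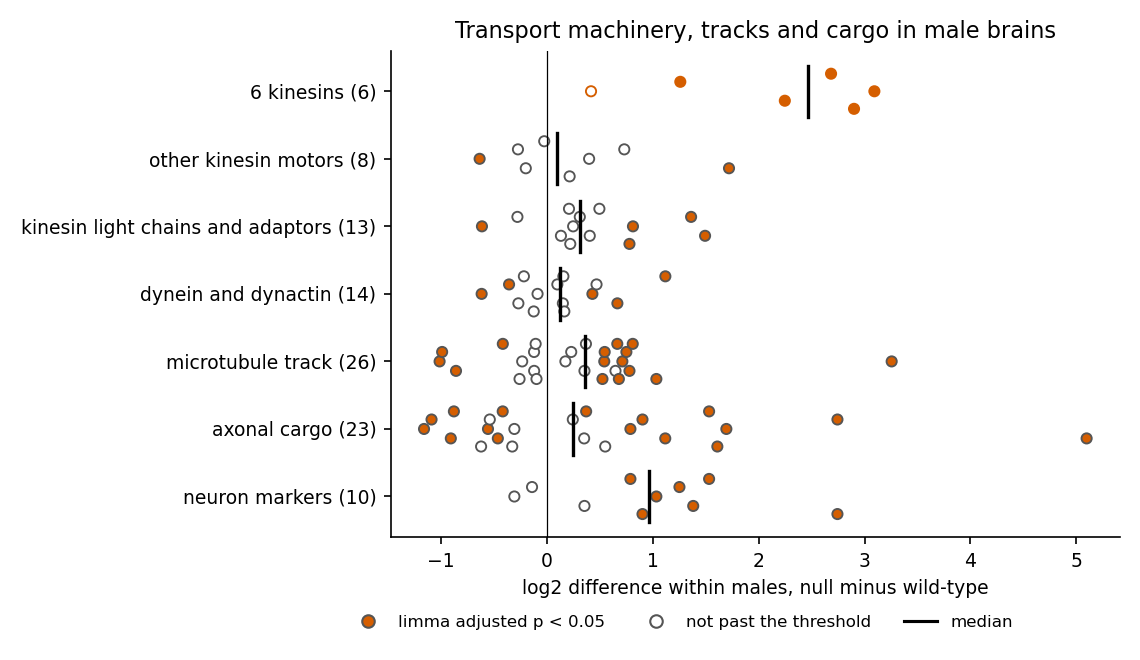
Log2 difference within males, null minus wild-type, for the 6 kinesins and for each tested gene of 6 lists, 1 point for each gene, filled where the limma adjusted p was under 0.05, with the median as a bar. The kinesins lie between 0.42 and 3.09, the neuron markers have a median of 0.97, and the lists of other kinesin motors, adaptors, dynein and dynactin, microtubule track and axonal cargo have medians of 0.10 to 0.36.

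The genes most like each kinesin were taken as the 3 with the smallest root mean square difference of centred log2 signals over all 11 arrays. Kif5a was nearest to Ywhag, Napb and Kif5c, at 0.288, 0.342 and 0.389, where its own SD was 1.277. Kif5c was nearest to Napb, Kif5a and Snx2, at 0.354, 0.389 and 0.495, with an SD of 1.272. Kif1a was nearest to Rora, Norad and Vamp2, and Kif1b to Ier3, Matr3 and Pdia6. Kif3a was nearest to Trim37, Trak2 and Arpp19, and Kif5b to Fhl2, Gng3 and Eif3l. Over the 9 arrays without the male nulls, Rora and Norad were again among the nearest to Kif1a, Trim37 to Kif3a, Fhl2 to Kif5b and Napb to Kif5c, and none of the earlier 3 to Kif1b or Kif5a.

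Over those 9 arrays the 15 pairs of kinesins had Pearson correlations of -0.737 to 0.858, with 6 of 15 above 0. The highest was Kif5a with Kif5c (Spearman 0.717), which was 0.352 without the 2 arrays farthest from the median, and the lowest Kif5a with Kif5b (Spearman -0.733). These describe 9 arrays that share scaling and genotype differences.

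Among wild-type brains, Kif1a was the only kinesin with all LT animals above all B4 animals, an order that 9.24% of probe sets had. It had 118.5, 89.3 and 114.3 in LT brains, against 44.1, 61.5 and 44.5 in B4 brains, 2.16-fold (exact two-sided permutation p = 0.1, the smallest possible). All LT animals were 6 weeks old and all B4 wild types were older, so number letters and age cannot be told apart here. Among B4 animals alone, the log2 difference of Kif1a within males was 2.83 (limma adjusted p = 0.000136), and Kif1a, Kif3a, Kif5a, Kif5c and, with the limit above, Kif1b passed there, where 16.6% of probe sets were called higher.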

How the data were processed

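RNA of whole brain was hybridised to single-colour Affymetrix arrays, 1 per mouse. The deposited table holds intensity values (signals), made by the authors with MAS5, per the submitters' processing notes; its version and the scaling are not given in the sources used here. Every array had a trimmed mean of 150.1 (2% from each end). Probe sets were named through the platform annotation: 10855 had 1 gene, 396 several and 1237 none, and 10839 matched a RefSeq gene. Suffixes _s_at and _i_at mark probe sets with shared or fewer probes, and related kinesins may share signal.

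Signals were raised to 3.1 (10th percentile) and put on the log2 scale. Probe sets with a mean under 4.69 (signal 25.8; 40th percentile) and 66 controls were left out. Differences were tested with limma 3.58.1 (R 4.3.3; lmFit, eBayes with a variance trend) on all 11 arrays, Benjamini-Hochberg adjusted over 7453 probe sets, threshold 0.05. Genotype was fitted with sex as a covariate, sex with genotype, and within-sex differences and their interaction from 4 group means. The script was tested on simulated data. Scaling, floor, filter, covariates, number letters, B4 animals alone and leaving out mice were tried as alternatives. Named were all probe sets of the 6 genes, list members past the threshold or with the largest differences, and the 3 nearest genes. Members, lists and tests were chosen with earlier results of these data known. The number of arrays limits precision.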

Additional observations from a re-analysis of the deposited data

Results flagged for a closer look

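The genotype difference differed between females and males for 4 of the 6 kinesins, by the interaction term of the limma fit, with Kif1b kept by the filter on dim probe sets only through the male nulls. The female difference minus the male one was -2.43 on the log2 scale for Kif5a, -3.46 for Kif1b, -2.14 for Kif1a and -1.25 for Kif3a. In each case the male difference rests on the 2 male null arrays, which also stood apart in the Gapdh control ratio. No array of a kinesin lay far enough from the others of its genotype to be picked out by Dixon's test. That test looks for 1 extreme array, and 2 that are high together, as the male nulls were, hide each other from it. It therefore says nothing on whether the male nulls stood apart.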

How the results depend on the processing

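No paired analysis was possible because the replicate numbers were given in accession order and pair no mice. Within males, 5 kinesins and 2433 probe sets passed; with the Gapdh ratio as a covariate 0 and 0 did, and with 1 mouse left out 4 to 6 and 1217 to 2486. For the interaction, 4 kinesins and 1187 probe sets passed; with the Gapdh ratio 0 and 0 did, with B4 animals only 644 probe sets, and with 1 mouse left out 1 to 5 and 461 to 1406. Over both sexes, 0 kinesins and 2 probe sets passed; 1 probe set did with quantile normalization, median centring, the filter at the 20th percentile or no covariate, 0 with no filter, age, the Gapdh ratio or without the 2 male null brains, and 26 with B4 animals only. With 1 mouse left out, 0 to 3 kinesins and 1 to 877 probe sets passed, the most without wild-type brain 5. Within females the count of 0 probe sets became 1 with median centring or B4 animals only, and 0 to 4 with 1 mouse left out. Between the sexes it became 3 with no filter or the filter at the 20th percentile, 10 with B4 animals only, and 0 to 30 with 1 mouse left out.

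Some differences changed sign, and not all of these were small in the main fit. Kif3a within females became -0.065 with quantile normalization, -0.056 with median centring, -0.068 with age, -0.26 with the Gapdh ratio and -0.039 with number letters as a block. Kif5b over both sexes became -0.077 with median centring, -0.35 with the Gapdh ratio and -0.24 without the male nulls, and between the sexes -0.11 with B4 animals only. With the Gapdh ratio, Kif1a, Kif1b and Kif3a over both sexes went from 1.24, 1.45 and 0.67 to -0.16, -0.69 and -0.28. Kif3a within males went from 1.26 to -0.14, and Kif1b between the sexes from -0.90 to 0.17. Without the male nulls Kif1b became -0.37 between genotypes and 0.74 between the sexes. With 1 mouse left out, the differences within females ran from -0.39 (without wild-type brain 3) to 0.61 for Kif1a, -0.64 to 0.11 (without null brain 3) for Kif1b and -0.12 (without null brain 4) to 0.13 for Kif3a, and that of Kif5b between the sexes from -0.051 (without wild-type brain 5) to 0.14. The cause was not tested. Median centring moved the median of all genotype differences by -0.181, to -0.146. The interaction of Kif3a did not pass with quantile normalization (-1.09, limma adjusted p = 0.0585), median centring (-1.03, 0.0727), the filter at the 20th percentile (-1.25, 0.0501) or B4 animals only (-1.13, 0.155), nor that of Kif1a with no filter (-2.14, 0.0915).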
